A study of Caenorhabditis elegans with 3 samples.

Results

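The *ugt* genes of *Caenorhabditis elegans* encode UDP-glucuronosyltransferases, and 63 of them were measured in larvae at the middle of the third larval stage. Members were taken by name: every probe whose single gene symbol in the platform's annotation was *ugt* followed by a number. This gave 63 genes with 1 probe each, out of 19075 features measured on all arrays, of which 14936 carried a gene name. All 63 symbols are current ones: RefSeq's annotation of WBcel235 has 67 *ugt* genes and these among them. The other 4, *ugt-29*, *ugt-31*, *ugt-35* and *ugt-45*, had no probe named for them here and were not analysed. The members were thus chosen by name, but the family itself was selected on the ratios between mid-L3 and reference on these same arrays, which were known when it was put forward. The values below are therefore a description, and the calls of members support no claim about the family.

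The study used 3 two-colour arrays, each a DNA array on which RNA of mid-L3 hermaphrodites, labelled TP01, was hybridised together with a common reference. There was 1 array for each of 3 mid-L3 preps, and the reference in the other channel was a wild-type RNA that the labels call mixed. The labels give no genotype for the mid-L3 animals, no treatment, no temperature and no age in hours, and do not say whether the preps came from separate cultures. Whole animals were used, so a lower share of a cell type and less RNA per cell cannot be told apart. Each value is a log2 ratio of the channels as the authors deposited it, moved so that the median of its array is 0. Such a ratio measures a difference from the reference and not a level, so it does not tell which *ugt* gene had the most mRNA.

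UDP-glucuronosyltransferases are membrane-bound enzymes of the endoplasmic reticulum that attach a sugar from a UDP-sugar donor to small fat-soluble molecules. The added sugar makes the molecule more soluble in water and ready for export, and this is called the second phase of detoxification. The first phase, in which cytochrome P450 enzymes and flavin monooxygenases make a reactive group, comes before it, and export by ABC transporters after it. In nematodes the sugar added to foreign compounds is often glucose. The intestine is a main site of detoxification in the worm, and the family has grown through copies that lie side by side. For most single members the natural substrate is unknown, so a role is given below only where one is established.

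The labels do not state which channel is the numerator, and signs were kept as deposited. All 3 arrays ran the same way, with correlations across all features of 0.74, 0.81 and 0.76 between preps 1 and 2, 1 and 3, and 2 and 3, as a description over features that share one reference. Sperm and oocyte genes mark the germ cells that mid-L3 hermaphrodites do not yet have in mature form. Of 30 *msp* genes, which encode the major sperm protein, 29 were negative past the threshold and the list median was -2.44. Of 20 oocyte and eggshell genes 18 were negative and the median was -2.69. Both lists were low on every array, with medians from -2.15 to -2.84. Another list set up for this check, adult yolk protein genes, was mixed. Of 3 measured, 1 was negative and 0 positive past the threshold (13.8% and 13.5% of all features), with a median of 0.14. Below, a positive ratio is one with the sign opposite to that of these germ cell lists.

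Positive ratios were more frequent than negative ones among the *ugt* genes. The test compared the mean ratio of each feature with 0 in limma, over all 19075 features at once, and a feature passed the threshold when its p, adjusted after Benjamini and Hochberg, was under 0.05. By this rule 27 of 63 members were positive, where the share of all features was 13.5%, and 5 were negative, where the share of all features was 13.8%. The remaining 31 did not pass. In either direction 32 of 63 members passed, beside 27.3% of all features. Nothing is read from these counts, for the reason given above. The adjusted p of the 32 members ran from 2.08e-07 to 0.0463 (limma).

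The median over the 63 members was close to the same on each array. It was 0.50 in prep 1, 0.53 in prep 2 and 0.52 in prep 3, against 0 to within 0.003 for all features in each prep. The median of the members' means was 0.46, with quartiles of 0.04 and 1.07. Over all features the median of means was 0.008, with quartiles of -0.28 and 0.32. Means above 1, a difference of more than 2-fold, were found for 17 members (27.0%), against 6.26% of all features. Means above 2 were found for 8 members (12.7%), against 1.11% of all features. At the other end 2 members (3.17%) were below -1, against 6.53% of all features. The plot of cumulative shares shows these values over the whole range, and features in general ran from -6.32 to 5.51, beyond the members on both sides.

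**Figure D1:**
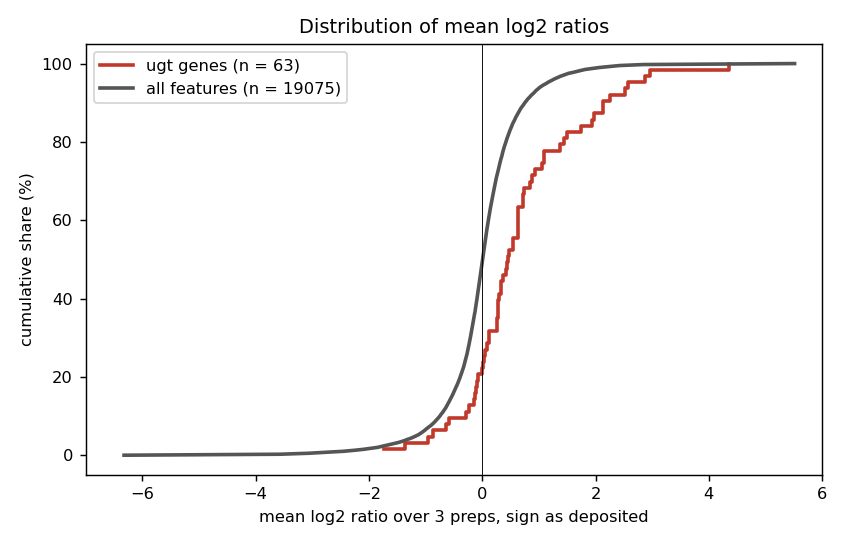
Cumulative share of genes (y axis, percent) by mean log2 ratio over the 3 preps (x axis, sign as deposited) for the 63 *ugt* genes (red) and all 19075 features (grey). The red curve lies to the right of the grey one over most of its length, with a median of 0.46 against 0.008, and ends at 4.35.

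The 8 highest members had means above 2. *ugt-22* lay far above the others, with log2 ratios of 4.48, 4.85 and 3.73 in preps 1, 2 and 3. Its mean of 4.35 ± 0.57 (SD, n = 3 preps, as for all errors here) corresponds to a 20.4-fold difference and was, with the sign as deposited, the second highest among the 14936 named genes. With the sign turned it would be the second lowest. This gene is known in the worm for altering the efficacy of the anthelmintic albendazole, a benzimidazole drug that worms conjugate to glucose. Even its lowest array value exceeded every value of every other member.

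*ugt-12* had ratios of 2.69, 3.27 and 2.90, with a mean of 2.96 ± 0.29, a 7.76-fold difference. *ugt-16* had 2.55, 2.60 and 3.49, with a mean of 2.88 ± 0.53, a 7.36-fold difference. *ugt-63* had 2.18, 3.03 and 2.52, with a mean of 2.58 ± 0.43. The 3 preps of these genes were all above 2, and the order of the genes was not the same in each prep, so their means do not rank them. *ugt-9* was the most even of the high members, with 2.20, 2.12 and 2.07 and a mean of 2.13 ± 0.07. *ugt-8* had nearly the same mean, 2.13 ± 0.59, from 2.01, 1.61 and 2.77. The last pair varied most between preps. *ugt-13* had 1.60, 2.31 and 3.63, with a mean of 2.51 ± 1.03, and *ugt-26* had 1.96, 1.25 and 3.55, with a mean of 2.25 ± 1.18. In both, prep 3 stood apart as the highest.

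A second set of 9 members had means between 1 and 2. *ugt-48* had log2 ratios of 1.56, 2.40 and 1.96 in preps 1, 2 and 3, with a mean of 1.97 ± 0.42. *ugt-57*, which lies on chromosome X, had 1.66, 1.65 and 2.51, with a mean of 1.94 ± 0.49. *ugt-17* had 2.00, 1.27 and 1.95, with a mean of 1.74 ± 0.41. Each prep was above 1 for these genes, and the highest prep was a different one for each. *ugt-46*, also on X, had 1.58, 1.34 and 1.59, with a mean of 1.50 ± 0.14. *ugt-66* had 1.49, 1.78 and 1.07, with a mean of 1.45 ± 0.36. *ugt-58*, the one member on chromosome II, had 1.96, 1.35 and 0.82, with a mean of 1.38 ± 0.57. Of these *ugt-46* had the narrowest range.

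*ugt-62* had 1.00, 1.13 and 1.17, with a mean of 1.10 ± 0.09. *ugt-21* had 1.04, 1.16 and 0.96, with a mean of 1.05 ± 0.10. *ugt-53* had nearly the same mean, 1.09 ± 0.57, from 1.67, 0.53 and 1.07. The 3 genes thus had like means, but the range over preps was 0.17 in *ugt-62*, 0.20 in *ugt-21* and 1.15 in *ugt-53*. All 17 members with means above 1 stayed past the threshold whichever prep was left out. Without prep 1 or prep 3 this rested on the size of the mean alone.

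**Figure D2:**
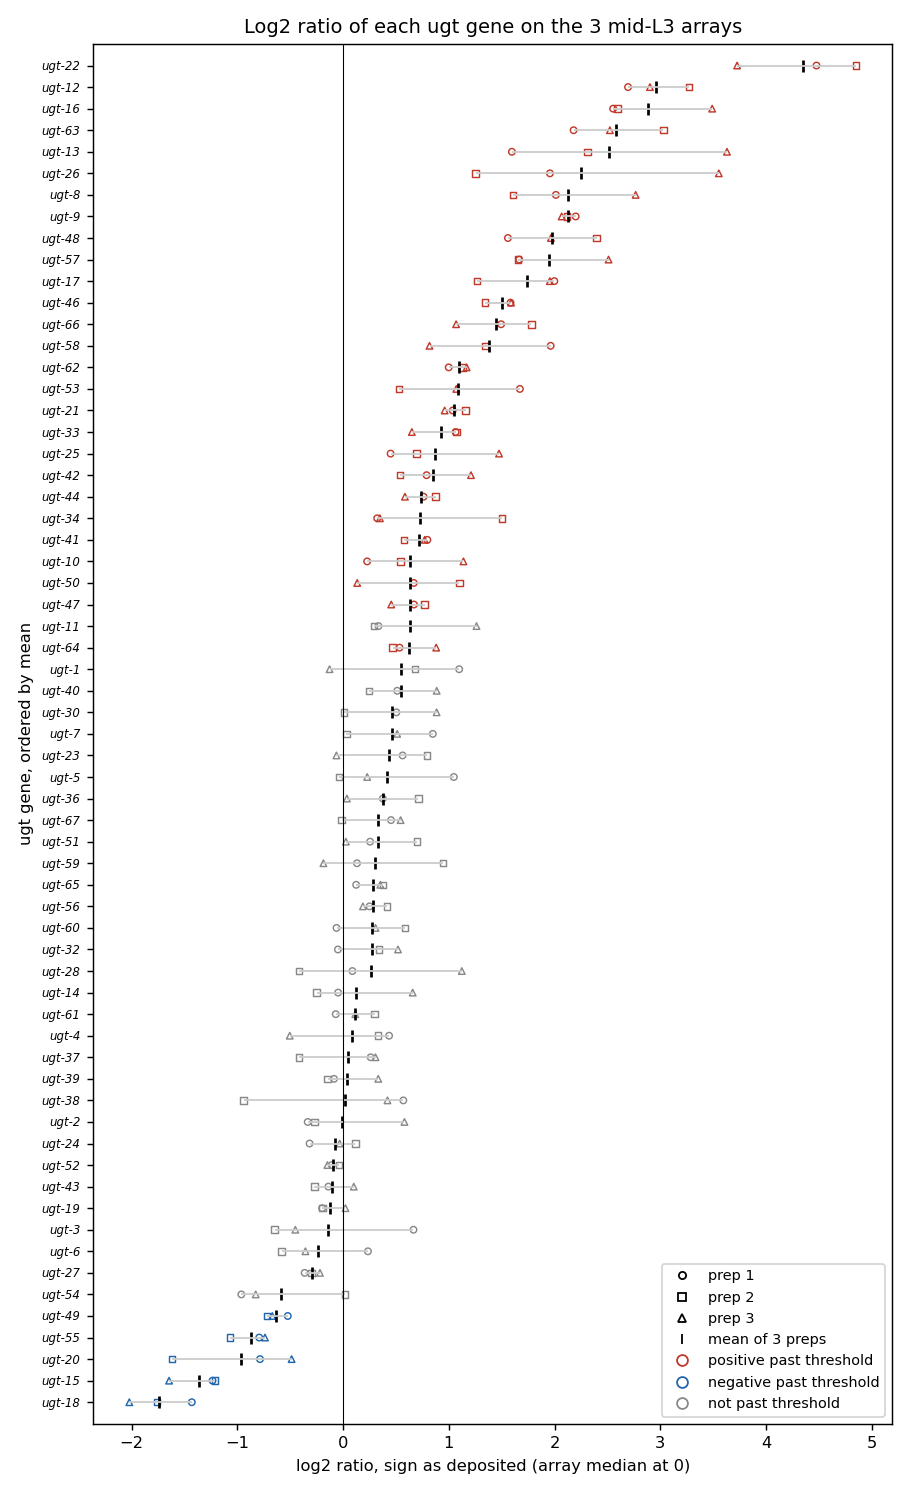
Log2 ratio (x axis, sign as deposited, array median at 0) of each of the 63 *ugt* genes (y axis, ordered by mean) in prep 1 (circles), prep 2 (squares) and prep 3 (triangles), with the mean as a black bar and the range as a grey line. Red marks the 27 genes that were positive past the threshold, blue the 5 that were negative and grey the 31 that did not pass, and *ugt-22* stands apart at the top.

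The other 10 positive members had means between 0.63 and 0.93. *ugt-33* had log2 ratios of 1.06, 1.07 and 0.65 in preps 1, 2 and 3, with a mean of 0.93 ± 0.24. *ugt-44* had 0.76, 0.87 and 0.58, with a mean of 0.74 ± 0.15. *ugt-41* had 0.80, 0.58 and 0.77, with a mean of 0.71 ± 0.12. Preps differed by at most 0.42 in each of the 3. *ugt-47* had 0.67, 0.77 and 0.45, with a mean of 0.63 ± 0.16. *ugt-64* had 0.53, 0.47 and 0.88, with a mean of 0.63 ± 0.22. *ugt-42* had 0.79, 0.54 and 1.21, with a mean of 0.85 ± 0.34. These 6 genes had all preps above 0.4.

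The remaining 4 rested more on single preps. *ugt-25* had 0.45, 0.69 and 1.47, with a mean of 0.87 ± 0.54. *ugt-10* had 0.23, 0.54 and 1.14, with a mean of 0.64 ± 0.46. In both prep 3 was the highest. *ugt-34* had 0.32, 1.50 and 0.35, with a mean of 0.72 ± 0.68, and so owed most of its mean to prep 2. *ugt-50*, on chromosome X, had 0.67, 1.10 and 0.13, with a mean of 0.63 ± 0.48. Without prep 2 the mean of *ugt-34* was 0.335 (adjusted p = 0.213, limma) and that of *ugt-50* was 0.401 (adjusted p = 0.227, limma). Without prep 3 the mean of *ugt-10* was 0.385 (adjusted p = 0.455, limma) and that of *ugt-25* was 0.57 (adjusted p = 0.2, limma).

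Of these 10 members *ugt-33* alone kept its call whichever prep was left out. The calls of *ugt-41*, *ugt-44*, *ugt-47*, *ugt-50* and *ugt-64* were lost without prep 1, those of *ugt-10*, *ugt-25*, *ugt-34*, *ugt-47* and *ugt-50* without prep 2, and those of *ugt-10*, *ugt-25*, *ugt-41*, *ugt-42*, *ugt-47* and *ugt-64* without prep 3. The signs stayed positive. Without prep 1 or prep 3, members of equal mean had equal adjusted p whatever their spread. Calls lost there thus follow the size of the mean, not the agreement of the remaining preps. Without prep 1 the means were 0.674 for *ugt-41*, 0.729 for *ugt-44*, 0.613 for *ugt-47*, 0.616 for *ugt-50* and 0.674 for *ugt-64*. Without prep 2 the mean of *ugt-10* was 0.683, of *ugt-25* 0.962 and of *ugt-47* 0.562. Without prep 3 the mean of *ugt-41* was 0.687, of *ugt-42* 0.664, of *ugt-47* 0.721 and of *ugt-64* 0.501. The edge of the call lay among these genes: *ugt-64* passed with a mean of 0.63 ± 0.22 (adjusted p = 0.0274, limma), while *ugt-11*, with the same mean of 0.63 but an SD of 0.55, did not (adjusted p = 0.0559, limma).

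Negative ratios past the threshold were found for 5 members, all smaller in size than the leading positive ones. *ugt-18* had log2 ratios of -1.43, -1.76 and -2.02 in preps 1, 2 and 3, with a mean of -1.74 ± 0.30, a 3.33-fold difference. *ugt-15* had -1.23, -1.21 and -1.65, with a mean of -1.36 ± 0.24, a 2.57-fold difference. These were the only members with every prep below -1. *ugt-20* had -0.79, -1.62 and -0.49, with a mean of -0.96 ± 0.59. *ugt-55* had -0.79, -1.07 and -0.74, with a mean of -0.87 ± 0.18. *ugt-49* had -0.52, -0.72 and -0.67, with a mean of -0.64 ± 0.10. The call of *ugt-20* was lost without prep 2 (mean -0.636, adjusted p = 0.057, limma). That of *ugt-49* was lost without prep 1 (mean -0.695, adjusted p = 0.0712), prep 2 (-0.597, adjusted p = 0.0584) or prep 3 (-0.622, adjusted p = 0.15, all limma), although its 3 values lay close together. Without prep 1 or prep 3 the adjusted p did not depend on how close the remaining preps were.

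The 31 members that did not pass had means from -0.59 to 0.63. Of these, 21 had preps of both signs, 8 were positive in every prep and 2 negative in every prep. *ugt-52*, with -0.11, -0.04 and -0.15, and *ugt-27*, with -0.36, -0.30 and -0.22, were the 2 that were negative throughout. Of these *ugt-52* was near the array median in every prep. *ugt-56* at 0.28 ± 0.12, *ugt-65* at 0.28 ± 0.14 and *ugt-40* at 0.55 ± 0.32 were positive in every prep. Others went both ways by a wide margin. *ugt-38* had 0.57, -0.94 and 0.42, *ugt-28* had 0.09, -0.42 and 1.12, and *ugt-3* had 0.67, -0.65 and -0.45. Means near 0 in such genes come from preps that disagree, and for them no difference was detectable with 3 arrays. *ugt-54* was the lowest of the 31, with -0.96, 0.02 and -0.83 and a mean of -0.59 ± 0.53. Without prep 2 it was negative past the threshold (mean -0.894, adjusted p = 0.0185, limma). Positive calls were likewise gained by *ugt-11* without prep 1 (mean 0.776, adjusted p = 0.0377), by *ugt-40* without prep 2 (0.698, adjusted p = 0.0491) and by *ugt-1* without prep 3 (0.887, adjusted p = 0.0222, all limma). *ugt-11* gained its call although its preps 2 and 3, at 0.29 and 1.26, lay far apart. Without prep 1 or prep 3 the adjusted p followed the size of the mean alone.

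The spread between preps was wider in the typical *ugt* gene than in the typical feature. The median SD over preps was 0.40 for the 63 members, against 0.29 for all features, and it ran from 0.05 in *ugt-52* to 1.18 in *ugt-26*. These SDs were compared as a description, with no test and without matching for the size of the mean. Means above 1 were found for 27.0% of members and 6.26% of all features. Prep 3 was the highest of the preps in 26 members (41.3%), prep 2 in 23 (36.5%) and prep 1 in 14 (22.2%). Over all features these shares were 28.3% for prep 3, 41.8% for prep 2 and 30.0% for prep 1. Among the 27 positive members prep 3 was highest in 11, prep 2 in 11 and prep 1 in 5, and each prep was the lowest in 9. Among all features that were positive past the threshold, prep 3 was highest in 20.6%, prep 2 in 54.2% and prep 1 in 25.2%. The arrays were centred but not scaled to equal spread. Ratios above 1 were found for 2192 features in prep 2, against 1227 in prep 1 and 1077 in prep 3. How far the highest prep of a gene follows the spread of its array was not tested. Across the 63 members the ratios of preps 1 and 2 correlated at 0.88, those of preps 1 and 3 at 0.85 and those of preps 2 and 3 at 0.81, as a description over genes that share the same arrays and reference.

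Genes that lie next to each other differed in their ratios about as much as members paired without regard to place. In the RefSeq gene order, 12 runs of *ugt* genes were found with at most 2 other protein-coding genes between members, and they held 36 of the 63 measured genes. The 24 pairs of adjacent measured members differed by a median of 0.84 on the log2 scale, and 11 of the 24 pairs (45.8%) were more than 1 apart. Over all 1953 pairs of members the median was 0.86 and 45.5% were more than 1 apart. Copies that lie side by side can be similar in sequence, and how far a spot also binds mRNA of other members was not tested.

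The widest contrast was a run of 3 genes on chromosome V, in the order *ugt-18*, *ugt-16* and *ugt-15*. The middle gene, *ugt-16*, had a mean of 2.88 ± 0.53, between neighbours at -1.74 ± 0.30 and -1.36 ± 0.24. The log2 ratio of *ugt-16* exceeded that of *ugt-15* by 3.79, 3.81 and 5.13 in preps 1, 2 and 3. Taken as *ugt-18* minus *ugt-16*, the difference was -3.98, -4.36 and -5.51. No prep of *ugt-16* overlapped with any prep of either neighbour. The outer genes were spotted in one sector of the array, as inferred from the probe order, and *ugt-16* in another. With every sector centred on its own median the means were 2.75 for *ugt-16*, -1.71 for *ugt-18* and -1.34 for *ugt-15*.

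The longest run, also on chromosome V, held 8 genes in the order *ugt-12*, *ugt-11*, *ugt-9*, *ugt-10*, *ugt-67*, *ugt-8*, *ugt-14* and *ugt-13*. High and low members were interspersed along it. *ugt-12* at 2.96 ± 0.29, *ugt-9* at 2.13 ± 0.07, *ugt-8* at 2.13 ± 0.59 and *ugt-13* at 2.51 ± 1.03 were high. Between them, *ugt-11* at 0.63 ± 0.55, *ugt-10* at 0.64 ± 0.46, *ugt-67* at 0.33 ± 0.30 and *ugt-14* at 0.12 ± 0.48 were low. Each high gene exceeded each adjacent low gene in every prep, by 0.81 to 2.98 on the log2 scale. By the inferred sectors, *ugt-12* and *ugt-9* shared a sector, and so did *ugt-10*, *ugt-67* and *ugt-14*. *ugt-8*, *ugt-13* and *ugt-11* lay together in another. With sectors centred, the high genes had means of 2.95 (*ugt-12*), 2.12 (*ugt-9*), 2.12 (*ugt-8*) and 2.51 (*ugt-13*). The low ones had 0.63 (*ugt-11*), 0.69 (*ugt-10*), 0.38 (*ugt-67*) and 0.17 (*ugt-14*). The means of this run spanned 2.84, and 5 of its 8 genes were positive past the threshold, where 13.5% of all features were. Nothing is read from this count, since the family was selected on these ratios.

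On chromosome I the run of *ugt-26*, *ugt-27*, *ugt-28* and *ugt-25* also split. *ugt-26* at 2.25 ± 1.18 lay beside *ugt-27* at -0.29 ± 0.07, *ugt-28* was at 0.26 ± 0.78 and *ugt-25* at 0.87 ± 0.54. Each gene of this run was highest in prep 3. *ugt-55* at -0.87 ± 0.18 and its neighbour *ugt-56* at 0.28 ± 0.12 had opposite signs in every prep.

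Some runs were more even in their means. *ugt-5*, *ugt-4*, *ugt-6* and *ugt-3*, which adjoin on chromosome V, had means from -0.23 to 0.41, and none of the 4 passed in either direction in limma, nor at an unadjusted p under 0.05. *ugt-40*, *ugt-37* and *ugt-38* had means from 0.02 to 0.55 and none of the 3 passed, *ugt-40* alone being under an unadjusted 0.05. Of all features 27.3% passed in either direction. Single preps of these runs were less even. *ugt-5* minus *ugt-4* was 0.61, -0.37 and 0.73 in preps 1, 2 and 3, and *ugt-37* minus *ugt-38* was -0.31, 0.52 and -0.11. *ugt-40* exceeded *ugt-37* in every prep. *ugt-47* at 0.63 ± 0.16 and *ugt-17* at 1.74 ± 0.41, on V with 1 other gene between them, were both positive but more than 1 apart.

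**Figure D3:**
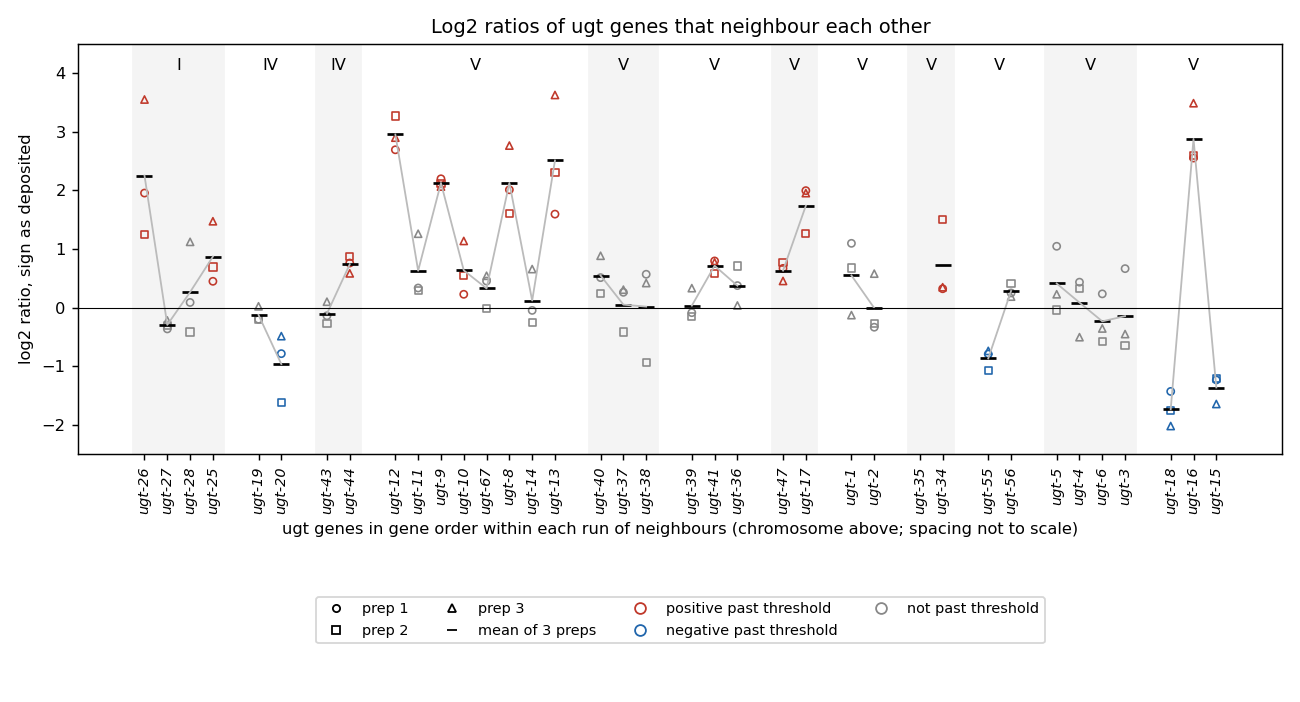
Log2 ratio (y axis, sign as deposited) of the *ugt* genes in each of 12 runs of neighbours, in gene order (x axis, spacing not to scale), in prep 1 (circles), prep 2 (squares) and prep 3 (triangles), with the mean as a black bar. Colours mark positive (red), negative (blue) and no call (grey); *ugt-16* at 2.88 stands between *ugt-18* at -1.74 and *ugt-15* at -1.36, and *ugt-35* was not measured.

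Most members lie on chromosome V, which held 40 of the 63. Their median was 0.46, with 16 positive and 4 negative past the threshold, where all named genes of V had shares of 12.2% and 14.0%. The 11 members on chromosome IV had a median of -0.08, although *ugt-22*, the highest of all, is among them. On IV 3 members were positive and 1 negative, where all named genes had shares of 13.6% and 17.8%. The 4 members on X had a median of 1.07 and 3 were positive, where 17.2% of all named genes were. The 4 on I had a median of 0.57 with 2 positive (12.8% of all named genes), and the 3 on III a median of 1.10 with 2 positive (16.7% of all named genes). Medians of all named genes ranged from -0.06 on IV to 0.06 on X. The 36 members within runs had a median of 0.35 with 13 positive, and the 27 outside runs a median of 0.63 with 14 positive, where 13.5% of all features were positive.

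Genes that act before and after the transferases were set beside the family. The shares of all features to hold these lists against are 13.5% positive and 13.8% negative. Of 19 ABC exporters of the *mrp* and *pgp* families, which pump conjugates and drugs out of cells, 9 were positive and 0 negative past the threshold (limma; at an unadjusted p under 0.05, 12 and 0), shares of 47.4% and 0%, with a median of 0.55. Without prep 3 there was 1 negative. *pgp-1* had log2 ratios of 1.71, 1.68 and 2.88, with a mean of 2.09 ± 0.68, *pgp-2* was at 1.28 ± 0.25 and *mrp-5*, a heme exporter, at 1.24 ± 0.15. The lowest, *pgp-6* at -0.52 ± 0.97, *pgp-7* at -0.18 ± 0.55 and *pgp-10* at -0.14 ± 0.45, did not pass and had prep 3 above 0 with the other preps below.

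Of 66 cytochrome P450 genes of the first phase 11 were positive (16.7%) and 9 negative (13.6%), with a median of -0.05. Both shares were near those of all features, 13.5% and 13.8%. The highest were *cyp-35C1* at 3.41 ± 0.35, *cyp-35A3* at 2.55 ± 0.84 and *cyp-35A2* at 2.46 ± 0.50, of the *cyp-35* family, known for its response to foreign compounds. Other *cyp-35* genes were positive, negative or without a call. The lowest were *cyp-37B1* at -2.10 ± 1.01, *cyp-13A1* at -1.78 ± 0.45 and *cyp-32A1* at -1.48 ± 0.36. Of 3 flavin monooxygenase genes *fmo-4* was positive at 1.33 ± 0.54, *fmo-1* negative at -0.77 ± 0.61, and *fmo-2* was at -0.32 ± 0.18 with no call. The call of *fmo-1* was lost without prep 1 or prep 3, which left 0 negative (limma). Of 23 short-chain dehydrogenase genes 7 were positive (30.4%) and 5 negative (21.7%), beside 13.5% and 13.8% of all features, with a median of 0.24. *dhs-28*, a peroxisomal enzyme of ascaroside side-chain shortening, was at 2.09 ± 0.71, *dhs-23* at 2.08 ± 0.53 and *dhs-25* at 1.98 ± 0.42. *dhs-26* at -2.42 ± 0.99, *dhs-1* at -0.91 ± 0.41 and *dhs-31* at -0.86 ± 0.46 were the lowest. The negative genes of that list numbered 1 without prep 1 and 2 without prep 3.

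Among other conjugating enzymes, 9 of 36 glutathione S-transferase genes were positive (25.0%) and 6 negative (16.7%), beside 13.5% and 13.8% of all features, with a median of 0.16. *gst-38* at 2.36 ± 0.46, *gsto-1* at 2.07 ± 0.40 and *gst-24* at 1.67 ± 0.58 were the highest, and *gst-41* at -2.05 ± 0.39, *gst-3* at -2.02 ± 0.18 and *gst-9* at -1.76 ± 0.59 the lowest. The sulfotransferase gene *ssu-1* had 0.10, -0.84 and -0.29 in preps 1, 2 and 3, with no call.

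The UDP-sugar supply list had 3 positive and 3 negative genes of 13 measured (23.1% each, beside 13.5% and 13.8% of all features), with a median of 0.10. The positive ones were the nucleotide-sugar transporter genes *nstp-3* at 0.92 ± 0.34 and *nstp-2* at 0.85 ± 0.30, and *D1005.2* at 0.66 ± 0.26. The negative ones were *sqv-1*, for the enzyme that converts UDP-glucuronate to UDP-xylose, at -1.33 ± 0.24, *nstp-1* at -0.98 ± 0.13, and *sqv-7*, for a Golgi transporter of UDP-sugars including UDP-glucuronate, at -0.86 ± 0.09. Both *sqv* genes are known for chondroitin and heparan sulfate synthesis. Without prep 3 the list had 1 positive gene.

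Of 13 genes for regulators of detoxification 1 was positive (7.69%) and 2 negative (15.4%), beside 13.5% and 13.8% of all features. The positive one was *nhr-8*, a nuclear hormone receptor gene known in resistance to foreign compounds, at 1.06 ± 0.42. The negative ones were *ahr-1*, the worm's aryl hydrocarbon receptor gene, at -0.96 ± 0.37, and *wdr-23*, for a repressor of the stress factor SKN-1, at -0.84 ± 0.21. *daf-12* at 0.53 ± 0.22, *mdt-15* at 0.36 ± 0.36 and *aha-1*, for the partner of AHR-1, at -0.50 ± 0.34 did not pass.

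Most intestinal markers also had positive ratios. Of 17 such genes 13 were positive (76.5%, beside 13.5% of all features) and 0 negative in limma, also at an unadjusted p under 0.05, with a median of 1.24 and list medians of 0.99, 1.48 and 1.06 in preps 1, 2 and 3. The highest were the cathepsin B-like gene *cpr-5* at 3.84 ± 0.36, the brush border actin gene *act-5* at 2.49 ± 0.60 and *pept-1*, for a transporter of dietary peptides, at 2.38 ± 0.07. The GATA factor genes of gut identity were lower, with *elt-2* at 0.32 ± 0.22 and *elt-7* at 0.07 ± 0.34, neither past the threshold. *let-413* at 0.08 ± 0.12 and *mtl-2* at 0.07 ± 1.20 did not pass either. The part of intestinal RNA, or of the germline RNA shown by the sperm and oocyte lists, in the ratios of the *ugt* genes was not tested. The 3 adult yolk protein genes measured differed among themselves. *vit-2* was negative past the threshold at -5.52 ± 0.78, while *vit-5* at 0.52 ± 0.68 and *vit-6* at 0.14 ± 0.41 had no call.

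**Figure D4:**
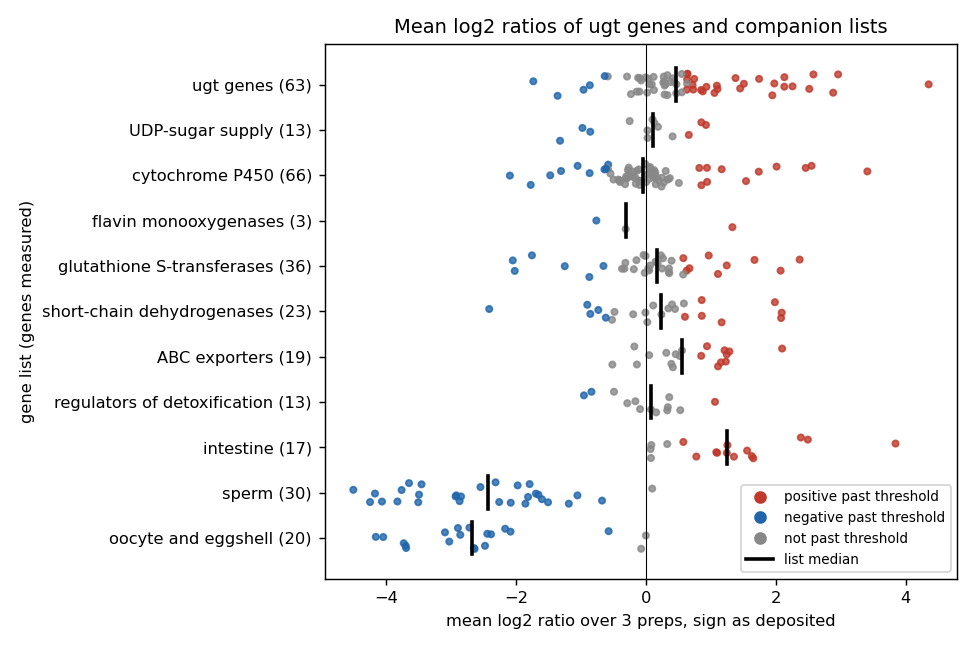
Mean log2 ratio over the 3 preps (x axis, sign as deposited) of each gene in the *ugt* family and in 10 other lists (y axis, genes measured in brackets), with the list median as a black bar and calls in red (positive), blue (negative) and grey (neither). The *ugt* genes reach from -1.74 to 4.35 with a median of 0.46, the sperm and oocyte lists lie at the left with medians of -2.44 and -2.69, and the intestinal list at the right with 1.24.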

How the data were processed

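The deposited table gives a log2 ratio of the 2 channels for each probe on each array, computed by the authors. Its scanner, dyes, background correction and normalization are not given in the sources used. The base of the logarithm was inferred: raising 2 to a value gave whole thousandths, to a tolerance of 0.001, for 97.0% to 98.3% of values per array. Deposited array medians were 0.027, -0.066 and 0.033 in preps 1, 2 and 3, and whether the authors centred the arrays is not known. The direction of the ratio is not stated, and the sperm and oocyte lists above are the guide to it used here. Spot intensities and flags were not used, so a dim spot looks like a bright one here.

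Symbols of the 15655 probes with a single gene, of 20000, were brought up to date through Entrez identifiers where RefSeq's WBcel235 table held them (15569 probes). Probes with several symbols named no gene. Array medians over the 19512 probes present on all arrays were subtracted, and probes of a gene were averaged. limma 3.58.1 in R 4.3.3 fitted an intercept to each of 19075 features (eBayes, two-sided, adjusted over all of them). This test omits the spread of the reference, measures only the spread between preps, which may be technical, and draws its variance from a prior of 9.8 degrees of freedom and 2 from the arrays. With prep 1 or prep 3 left out, the adjusted p followed the size of the mean alone. Calls kept, lost or gained there do not show whether the remaining preps agreed. The number of arrays limits the precision.

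The members and lists were chosen with earlier results of these data known. Any member may be named, with each prep where it passed, and each companion list is given by its 3 highest and 3 lowest means. *elt-2*, and the members without a call that are given in detail, were picked after their values were seen. Neighbours follow the RefSeq gene order. Sequences were not used here. Alternatives were other centrings, scalings, filters, moderation and weights, a minimum of 2-fold, and leaving out each prep. Array titles hold a different date each, so batch and prep cannot be told apart. Figures were drawn with matplotlib 3.10.9.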

Additional observations from a re-analysis of the deposited data

How the results depend on the processing

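The count of positive *ugt* genes, 27 with the settings of the report, stayed within 1.5 times under each alternative but one, and so did the count of 5 negative genes. With a minimum difference of 2-fold in limma, 11 members were positive and 1 negative, and 761 features in all passed instead of 5207. The median of the members' means, 0.46, was 0.51 with arrays scaled to equal spread, 0.50 with quantile normalization and 0.45 with array weights. With 1 prep left out it took values between 0.43 and 0.50. These medians moved by more than 0.011, the SD of the 3 prep medians, which is small because those medians nearly coincided. No called member changed sign under any alternative run, and 21 of the 32 calls were kept whichever prep was left out. Without prep 1 or prep 3 a kept call rested on the size of the mean alone. Centring each inferred sector of 25 by 25 probes moved means of members by -0.25 to 0.15, ended the calls of *ugt-34*, *ugt-42* and *ugt-50* and called *ugt-54*. Scaling the arrays ended those of *ugt-10*, *ugt-34* and *ugt-50*. The 1 positive regulator numbered 2 with sector centring, quantile normalization or array weights. Membership by updated symbols gave the same genes. Leaving out members with closely similar proteins was not run, since no protein sequence was used here. No paired analysis was possible because there is 1 group and its reference is the same on all arrays. The 3 arrays share 1 reference, and signal over background was not used.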
